A study of Mus musculus with 12 samples.

Results

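The genes followed here are 7 receptors by which macrophages bind and take up modified lipoproteins, polyanions, sialylated particles and dying cells: Msr1, Marco, Stab1, Cd36, Scarb1, Mrc1 and Siglec1. They were matched by gene symbol in the deposited table, where each has 1 row with 1 Ensembl identifier, and they are 7 of the 23764 Ensembl genes measured. Expression was measured by RNA sequencing of total RNA from RAW264.7 cells, an immortalized macrophage-like line of Balb/c origin that can be driven toward osteoclasts. In every group the cells received RANKL, the osteoclast-inducing cytokine, which the labels give at 100 ug/ml. The treated groups also received culture supernatant of the gut bacterium L. reuteri for 1, 3 or 5 days, and the vehicle groups received MEM-alpha medium for the same times. Each of the 6 groups has 2 libraries. Nothing in the labels tells whether the libraries of a group are separate cultures. The p-values therefore cover library-to-library spread only, which may be technical, and no group without RANKL was analysed here.

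Scavenger receptors were first defined by their uptake of chemically modified low-density lipoprotein and now include several unrelated protein families that share broad ligand binding. Msr1 and Marco are class A receptors with a collagen-like stalk, Cd36 and Scarb1 are class B receptors that handle fatty acids and cholesterol esters, and Stab1 is a large endocytic receptor with fasciclin-type domains. Mrc1 is the macrophage mannose receptor. Siglec1, also called sialoadhesin or CD169, is a sialic acid-binding adhesion receptor of tissue macrophages, and its transcript is a known interferon-inducible one.

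The libraries were of unlike composition, and that bears on every value at days 3 and 5. In replicate 2 of both arms at days 3 and 5, the share of reads from nuclear protein-coding genes was 38.1% to 48.8%, compared with 85.2% to 87.6% for the remaining 8 libraries. These 4 are called the low-mRNA libraries and the 8 the other libraries from here on. The low-mRNA libraries also held fewer reads (8071160 to 10724569, against 13812078 to 16781080). The deposited scaling brings every library to the same total, so a large share of nuclear noncoding and mitochondrial RNA lowers the other genes' values. Treatment was therefore tested within a library kind, with a term for the low-mRNA libraries at each of these days. Among them the treated ones held the larger nuclear coding share, 47.0% against 38.1% in vehicle at day 3 and 48.8% against 41.0% at day 5. The median log2 treatment difference over the 14715 genes tested was 0.23 at day 3 under the deposited scaling and 0.085 after scaling to nuclear protein-coding reads, and at day 5 these medians were 0.073 and -0.051. The macrophage markers (Adgre1, Csf1r, Cd68, Itgam, Lyz2, Ptprc and Spi1) were all detected in every library. The fibroblast markers present in the table (2 of 4), the T cell marker (1 of 3) and the B cell markers (2 of 3) were at or near 0, with summed normalized counts of at most 3.13, 0.898 and 10.1. The endothelial list summed to 30.9 to 184, of which Vwf made up most (at most 181), and none of its other genes exceeded 5.93.

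The 7 genes spanned a wide range of levels. Per kilobase of merged exons, the median normalized count over the 8 other libraries was 5852 for Cd36, 1149.8 for Msr1, 127 for Scarb1, 26.7 for Stab1, 22.8 for Siglec1, 0.634 for Mrc1 and 0.197 for Marco. The ranges of Cd36 (3638 to 6669), Msr1 (541 to 2903) and Scarb1 (79.1 to 147) did not overlap each other. Those of Stab1 (12.6 to 37.3) and Siglec1 (10.8 to 243) did, Siglec1 also reached past Scarb1, and Mrc1 (0 to 2.89) overlapped Marco (0 to 1.79). Cd36 was thus the most abundant of these receptor transcripts in the other libraries. Mrc1 and Marco were close to absent and did not reach a mean normalized count of 10 in any group, so 5 of the 7 genes could be tested.

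**Figure D1:**
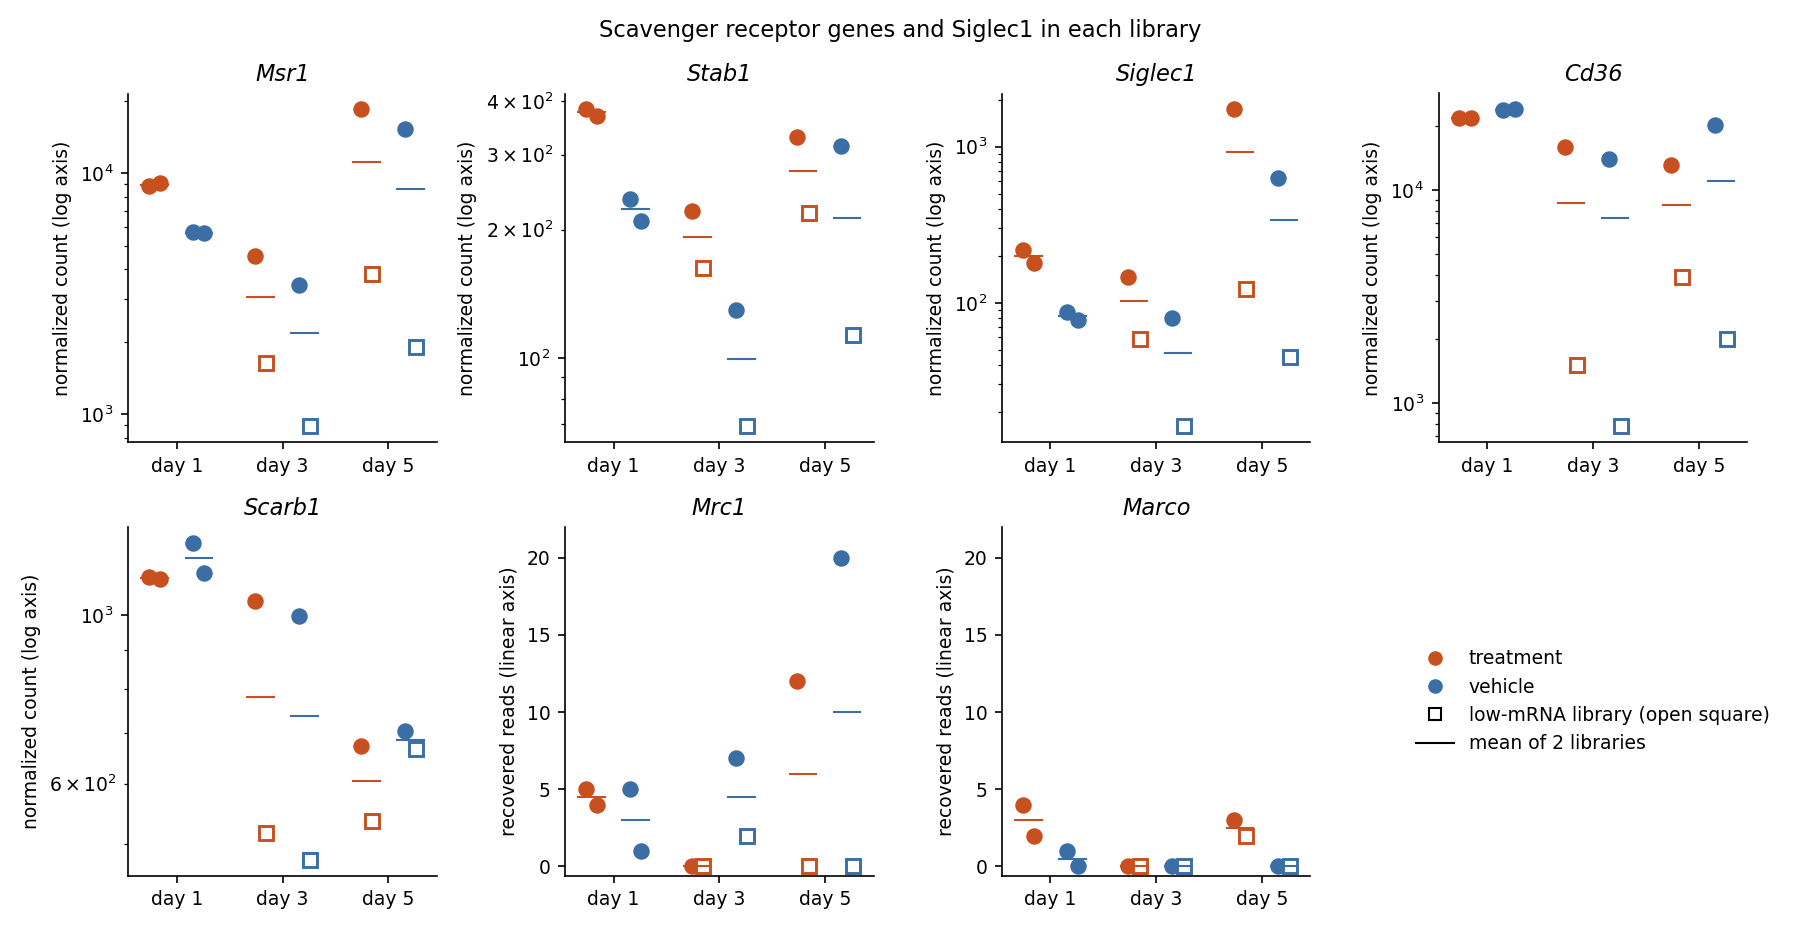
Normalized counts of Msr1, Stab1, Siglec1, Cd36 and Scarb1 (log axes) and recovered reads of Mrc1 and Marco (linear axes) in each of the 12 libraries, by day, with treatment left of vehicle. Open squares are low-mRNA libraries and lines are means of 2 libraries. Msr1, Stab1 and Siglec1 lie higher under treatment in each comparison within a library kind, while Mrc1 and Marco never exceed 20 reads.

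Under treatment, Msr1, Stab1 and Siglec1 were higher than in vehicle, with Siglec1 showing the largest difference of the 5. Averaged over days, Siglec1 rose 2.54-fold, Stab1 1.69-fold and Msr1 1.56-fold, and Cd36 and Scarb1 did not pass the test. These 3 calls, all upward, compare with 2.22% of the 14715 tested genes called higher in the same comparison. Over single days, no gene of the 5 was called at day 1 or day 3 (0.0408% and 0.0680% of all tested genes were called higher), and Siglec1 was called at day 5 (0.279%). Without either other library of day 3, which leaves only the low-mRNA pair to give that day's difference, Msr1, Stab1 and Siglec1 were called at day 3 as well (adjusted p = 0.00449 to 0.0241), but these fits called 4477 and 4487 of all genes, 30.4% and 30.5%. Without any 1 library of day 3, Siglec1 was called at day 1 (adjusted p = 0.0366 to 0.0408), in fits that called 40 to 44 of all genes.

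Msr1 encodes the macrophage scavenger receptor SR-A, which binds modified lipoproteins and bacterial surface polyanions. At day 1 it had 8881 and 9068 normalized counts in treated cells, against 5707 and 5636 in vehicle. At day 3 it had 4515 in the treated library and 3435 in the vehicle library of the other kind, and 1623 in the treated and 891 in the vehicle low-mRNA library. At day 5 these were 18415 (treated) and 15229.8 (vehicle) in the other libraries, and 3821 (treated) and 1898 (vehicle) in the low-mRNA libraries. Every treated library was above its vehicle counterpart, but the gap between library kinds at a day was wider than that between arms. The log2 difference averaged over days was 0.64 (SE 0.11, limma adjusted p = 0.0136), which is 0.56 above the median of all genes. It was 0.66 at day 1, 0.63 at day 3 and 0.64 at day 5 (SE 0.19 each, adjusted p = 0.524, 0.285 and 0.194). The values of days 3 and 5 average unlike library kinds. Within the other libraries the difference was 0.39 at day 3 and 0.27 at day 5, and within the low-mRNA libraries 0.87 and 1.01. The call over days was lost when any 1 library of day 1 or either low-mRNA library of day 5 was left out, with adjusted p of 0.0566 to 0.0718.

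Stab1 encodes stabilin-1, an endocytic receptor that clears modified lipoproteins and the matrix protein SPARC. At day 1 it had 383 and 370.4 normalized counts in treated cells, against 236 and 210.1 in vehicle. At day 3 it had 221 (treated) and 129.7 (vehicle) in the other libraries and 162 (treated) and 69.1 (vehicle) in the low-mRNA libraries. At day 5 the other libraries had 329 (treated) and 314 (vehicle), and the low-mRNA libraries 219 (treated) and 113 (vehicle). The arms did not overlap at days 1 and 3, and at day 5 the treated low-mRNA library lay between both vehicle libraries. The log2 difference over days was 0.75 (SE 0.13, limma adjusted p = 0.0169), 0.67 above the median of all genes. By day it was 0.76 at day 1, 0.99 at day 3 and 0.51 at day 5 (SE 0.23 each, adjusted p = 0.605, 0.156 and 0.460). Within the other libraries the day 5 difference was 0.070. Leaving out any 1 library of day 1, or any 1 low-mRNA library, ended the call over days (adjusted p = 0.0565 to 0.0958).

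Siglec1 had 219 and 179 normalized counts in treated cells at day 1, against 87.1 and 77.2 in vehicle. At day 3 the other libraries had 146 (treated) and 79.7 (vehicle), and the low-mRNA libraries 58.3 (treated) and 16.2 (vehicle). At day 5 they had 1735 (treated) and 628 (vehicle) in the other libraries, and 123 (treated) and 45.2 (vehicle) in the low-mRNA libraries. The lowest of these values, in the vehicle low-mRNA library of day 3, rests on 11 reads, and every treated library was above its vehicle counterpart. The log2 difference was 1.34 over days (SE 0.14, limma adjusted p = 0.00147), 1.26 above the median of all genes. It ranked 91 from the top among 14715 genes in that comparison. By day it was 1.26 at day 1, 1.33 at day 3 and 1.45 at day 5 (SE 0.25 each, adjusted p = 0.167, 0.0850 and 0.0452). The call over days held with any 1 library left out. The day 5 call did not hold when any 1 of the 8 libraries of days 1 and 5 was left out, with adjusted p of 0.0870 to 0.316.

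Those 3 genes were higher in every treated library than in each vehicle library of the same day and library kind. The same pattern was found in 6.37% of all tested genes, and in 5.09% after scaling to nuclear protein-coding reads, where Msr1, Stab1 and Siglec1 kept it. With that scaling the differences over days were 0.55 for Msr1, 0.66 for Stab1 and 1.26 for Siglec1, and each was still called (adjusted p = 0.0035, 0.0063 and 0.00061). In the 4 libraries of day 1 alone, none of which was low-mRNA, the 3 genes were called higher, against 3.04% of all tested genes. That fit has only 2 residual degrees of freedom and called 820 genes. The fit to all 12 libraries called 6 genes at day 1, and none of these 3. In the day 1 fit the differences were 0.66 (SE 0.044, adjusted p = 0.00756) for Msr1, 0.76 (SE 0.089, adjusted p = 0.0180) for Stab1 and 1.26 (SE 0.15, adjusted p = 0.0182) for Siglec1. Of the macrophage markers at day 1, the lysozyme gene Lyz2 was also higher in treated cells, at 140362 and 135371 normalized counts, against 104639 and 94718 in vehicle. The rest of the list was mixed. Cd68 was also higher, at 6548 and 6099 in treated cells against 5639 and 5322 in vehicle. Csf1r was lower, at 9239 and 8534 in treated cells against 10176 and 9266 in vehicle. Ptprc was lower too, at 5605 and 5900.4 in treated cells against 6073 and 6188 in vehicle. Adgre1, Itgam and Spi1 overlapped between the arms. In bulk RNA, a change in the share of cells that carry a transcript and a change in transcript per cell cannot be told apart. The part of the Lyz2 and Cd68 differences in these results was not tested.

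**Figure D2:**
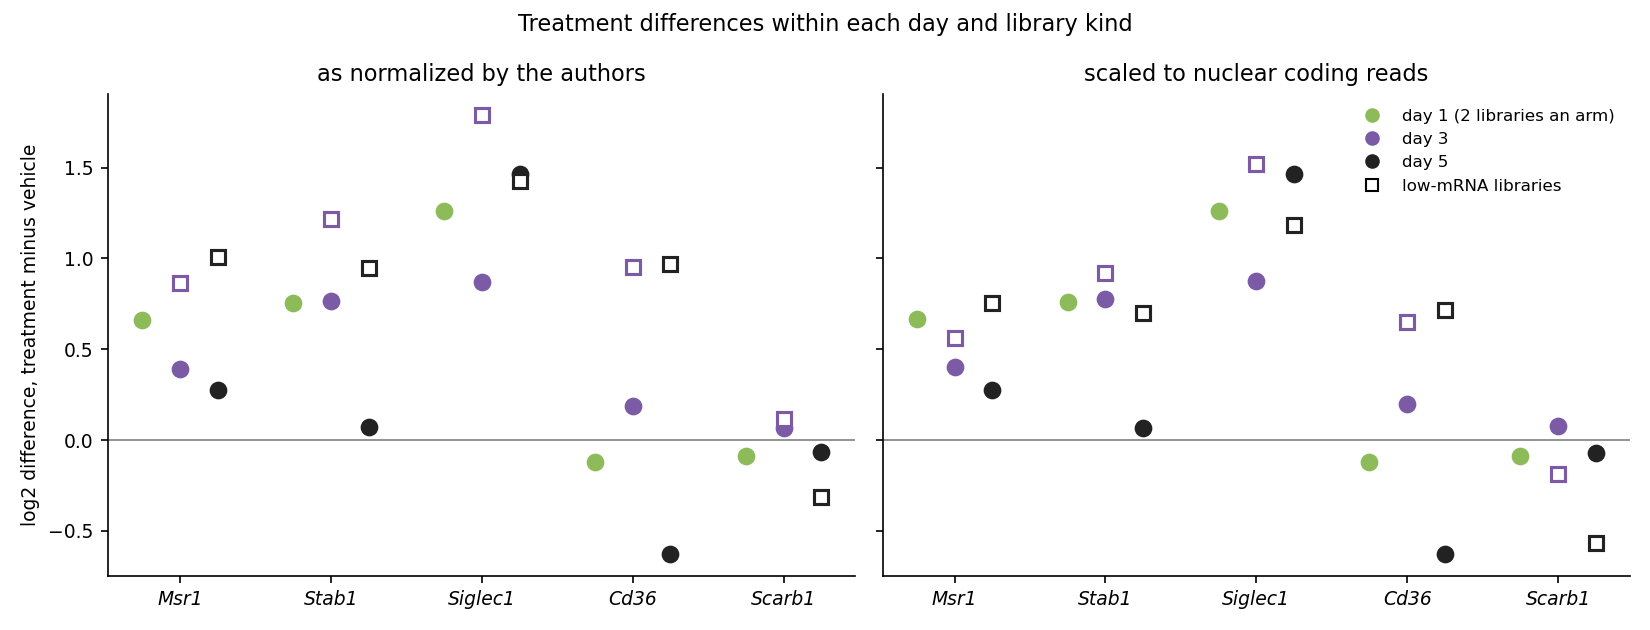
Log2 difference of treatment minus vehicle (y axis) for the 5 tested genes, computed within each day and library kind, with the values as normalized by the authors (left) and scaled to nuclear coding reads (right). Filled circles are the other libraries and open squares the low-mRNA libraries. Msr1, Stab1 and Siglec1 stay above 0 at every point, with 0.070 for Stab1 at day 5 the lowest on the left, while Cd36 and Scarb1 lie on both sides.

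Cd36, a class B receptor for oxidized lipoproteins and long-chain fatty acids, had no shared direction. At day 1 it had 21879.5 and 21914 normalized counts in treated cells, against 23662 and 23943 in vehicle. At day 3 the other libraries had 15973 (treated) and 13997 (vehicle), and the low-mRNA libraries 1509 (treated) and 778 (vehicle). At day 5 the other libraries had 13059.7 (treated) and 20139 (vehicle), and the low-mRNA libraries 3897 (treated) and 1989 (vehicle). The treated libraries were lower at day 1, higher at day 3 and split by library kind at day 5, where the log2 differences were -0.62 in the other and 0.97 in the low-mRNA libraries. The difference over days was 0.21 (95% interval -0.18 to 0.60, limma adjusted p = 0.601). In the 8 other libraries alone it was -0.18 (adjusted p = 0.0473), and at day 5 -0.62 (adjusted p = 0.0213), both called lower and of the opposite sign. That fit has 1 library per arm at days 3 and 5 and 2 residual degrees of freedom, both from day 1, so it does not measure the spread of day 5, and it called 1513 genes over days and 855 at day 5.

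Scarb1 encodes SR-BI, the receptor that takes up cholesterol esters from high-density lipoprotein. It had 1122 and 1118 normalized counts in treated cells at day 1, against 1247 and 1136 in vehicle. At day 3 the other libraries had 1046 (treated) and 999 (vehicle), and the low-mRNA libraries 516 (treated) and 476 (vehicle). At day 5 the values were 673 (treated) and 705 (vehicle) in the other libraries, and 536 (treated) and 667 (vehicle) in the low-mRNA libraries. The arms lay close together in the other libraries at each day. In the low-mRNA pair of day 5 the log2 difference was -0.32, and -0.57 after scaling to nuclear protein-coding reads. The log2 difference over days was -0.06 (95% interval -0.25 to 0.12, limma adjusted p = 0.754). An F test of whether the treatment difference changed between days called none of the 14715 genes (0%). At an unadjusted p under 0.05 there were 701, and limma-voom on recovered reads also called 0. The adjusted p was 0.996 for Msr1, 0.808 for Stab1 and for Cd36, 0.947 for Siglec1 and 0.810 for Scarb1.

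Mrc1 and Marco were followed by their recovered reads. Mrc1 had 5 and 4 reads in treated libraries of day 1, 0 in both of day 3, and 12 and 0 at day 5. In vehicle it had 5 and 1 reads at day 1, 7 and 2 at day 3 and 20 and 0 at day 5. Summed over arms this is 21 treated and 35 vehicle reads, a ratio per read sequenced of 0.601 (exact 95% interval 0.332 to 1.06, counting error only). Marco, which binds bacteria and inhaled particles, had 4 and 2 reads in treated libraries of day 1, 0 in both of day 3 and 3 and 2 at day 5, against 1 read in all 6 vehicle libraries together. Its 11 treated reads to 1 vehicle read give a ratio of 11 (exact 95% interval 1.60 to 474, counting error only). Neither gene was tested across libraries, and at this depth a transcript with under 3 reads in a library cannot be followed.

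Between days, these genes moved apart in the other libraries. No group without RANKL was analysed, so RANKL and time in culture cannot be told apart here. Compared in the other libraries, with 1 such library per arm at days 3 and 5, Msr1 fell at day 3 and Siglec1 and Msr1 rose at day 5, while Scarb1 fell. At day 3 against day 1, Msr1 was lower by -0.86 log2 units (SE 0.16, limma adjusted p = 0.0136). It was the 1 gene of the 5 called lower, where 3.21% of all tested genes were. Stab1 was at -0.77 (adjusted p = 0.0538), Cd36 at -0.61 (adjusted p = 0.239), Siglec1 at -0.24 (adjusted p = 0.634) and Scarb1 at -0.18 (adjusted p = 0.521). The Msr1 call was lost without any 1 library of day 1 or without the other treated library of day 3 (adjusted p = 0.0559 to 0.0857). Stab1 was called when either low-mRNA library of day 3 or any 1 library of day 5 was left out (adjusted p = 0.0241 to 0.0271).

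At day 5 against day 1, Siglec1 rose by 3.02 log2 units (SE 0.22, limma adjusted p = 0.000162), ranking 20 from the top of 14715 genes. Msr1 rose by 1.23 (SE 0.16, adjusted p = 0.00205) and Scarb1 fell by 0.75 (SE 0.13, adjusted p = 0.00668). The background was 5.31% called higher and 4.75% called lower. Cd36, at -0.49 (adjusted p = 0.284), and Stab1, at 0.15 (adjusted p = 0.707), did not pass. Without the other vehicle library of day 5, Msr1 was at 0.86 (adjusted p = 0.0736) and Scarb1 at -0.62 (adjusted p = 0.0985). With no term for the low-mRNA libraries none of these calls held, and Siglec1 was at 1.13 (adjusted p = 0.569) and Msr1 at -0.087 (adjusted p = 0.949). The low-mRNA libraries of day 5 did not show the day 5 levels of the other libraries. Scaled to nuclear protein-coding reads, their Siglec1 counts were 199 in treated and 86.8 in vehicle, beside 201 and 165 in treated and 79.7 and 70.9 in vehicle cells at day 1. Their Msr1 counts on the same scale were 6156 in treated and 3642 in vehicle, below the day 1 counts of 8129 and 8364 in treated and 5225 and 5178 in vehicle cells. For Scarb1 the treated count of 863 was below the day 1 counts of 1027 and 1031. The vehicle count of 1280 was above the day 1 counts of 1141 and 1044.

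At day 5 against day 3, Siglec1 rose by 3.26 log2 units (SE 0.25, limma adjusted p = 4.39e-05), Msr1 by 2.09 (SE 0.19, adjusted p = 0.000111) and Stab1 by 0.92 (SE 0.23, adjusted p = 0.0239). Scarb1 fell by 0.57 (SE 0.15, adjusted p = 0.0251), and Cd36 was at 0.12 (adjusted p = 0.837). The Cd36 value averages -0.29 in treated and 0.52 in vehicle. In the low-mRNA libraries Cd36 rose by 1.37 in treated and 1.35 in vehicle, and by 1.32 and 1.25 after scaling to nuclear protein-coding reads. Of all tested genes 7.90% were called higher and 7.82% lower. Within the low-mRNA libraries the same step was smaller for Siglec1, 1.07 in treated and 1.43 in vehicle, and for Msr1, 1.23 in treated and 1.09 in vehicle, and Scarb1 had 0.052 in treated and 0.48 in vehicle. Stab1 lost its call without any 1 library of day 1, the other treated library of day 3 or the other vehicle library of day 5 (adjusted p = 0.0540 to 0.249, lowest value 0.48). Scarb1 lost its call without any 1 library of day 1, the other vehicle library of day 3 or either other library of day 5 (adjusted p = 0.0515 to 0.153).

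Markers of both cell fates differed between the same libraries. The summed osteoclast markers (Acp5, Ctsk, Calcr, Ocstamp, Atp6v0d2 and Mmp9) in the other libraries were 1046 to 1130 normalized counts in treated and 811 to 876 in vehicle cells at day 1. At day 3 they were 7281 in treated and 9750.0 in vehicle, and at day 5 1704 in treated and 1861 in vehicle. The low-mRNA libraries of day 5 held 15418 in treated and 13639 in vehicle, so at day 5 the libraries with high Msr1 and Siglec1 were those with low osteoclast markers. At day 3, under the deposited scaling, the low-mRNA libraries had less Msr1 and Siglec1 and also the smaller osteoclast sums, 4548 in treated and 2660.4 in vehicle. That scaling lowers coding genes in the low-mRNA libraries. The sums were not rescaled to nuclear protein-coding reads, so the day 3 order of the library kinds is not settled by them. Lyz2 in the other libraries of day 5 had 273448 normalized counts in treated and 284656 in vehicle, against 70584 in treated and 47777 in vehicle at day 3. In the same libraries Itgam also rose, to 12903 in treated and 11670.5 in vehicle, against 5761 in treated and 5273 in vehicle at day 3. Adgre1 had 3281 in treated and 5307 in vehicle, against 2119 in treated and 2307 in vehicle at day 3. Cd68, Ptprc and Csf1r rose less. Csf1r was at 14780.1 in treated and 14087 in vehicle, against 12682 in treated and 12746 in vehicle at day 3. Spi1 was lower at day 5, with 2202 in treated and 2719 in vehicle, against 2962 in treated and 3078 in vehicle at day 3. The part of these differences in the day 5 results was not tested.

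**Figure D3:**
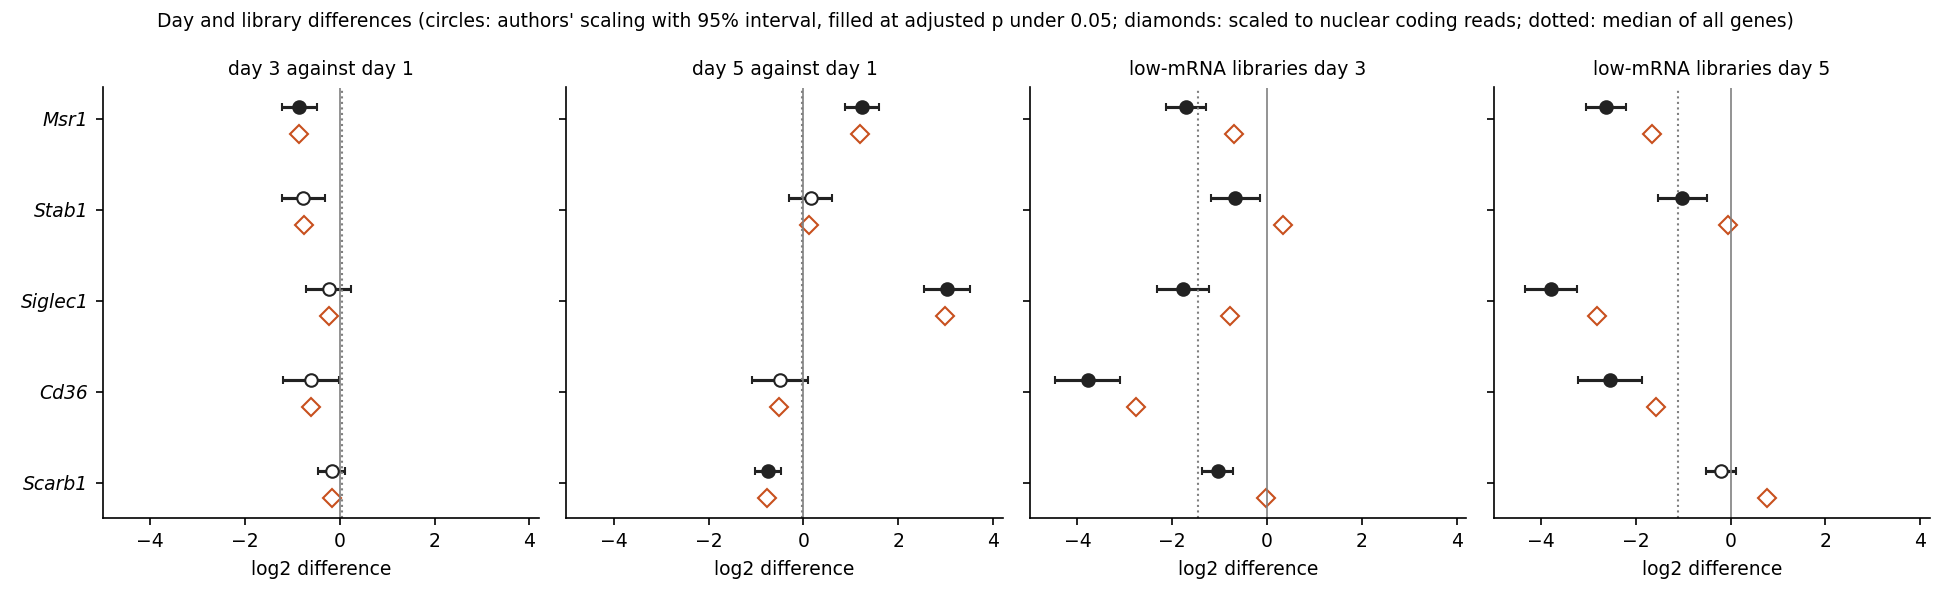
Log2 differences (x axis) of the 5 tested genes for day 3 and day 5 against day 1 and for low-mRNA against other libraries at days 3 and 5. Circles with 95% intervals use the authors' scaling and are filled at a limma adjusted p under 0.05, diamonds use nuclear protein-coding reads, and dotted lines are the median of all genes under the authors' scaling. Day differences barely move with the scaling, while the low-mRNA differences of Stab1 and Scarb1 reach or cross 0.

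How far a receptor's level depended on the library kind differed widely. At day 3 each of the 5 was lower in low-mRNA than in other libraries, by a log2 difference of -3.79 for Cd36, -1.77 for Siglec1, -1.71 for Msr1, -1.04 for Scarb1 and -0.67 for Stab1, all called. This was the rule across the transcriptome, where 70.6% of tested genes were called lower and the median was -1.45. At day 5 the differences were -3.79 for Siglec1, -2.64 for Msr1, -2.54 for Cd36 and -1.03 for Stab1, 4 called lower, with 64.0% of all genes called lower and a median of -1.11. Scarb1 was at -0.20 (limma adjusted p = 0.220). After scaling to nuclear protein-coding reads, Cd36 was still lower by -2.77 at day 3 and -1.57 at day 5, and Siglec1 by -0.79 and -2.83 at the same days. Msr1 was at -0.70 and -1.67. Under that scaling Stab1 was at 0.33 and -0.060, not called at either day, and Scarb1 at -0.030 at day 3 and 0.76 at day 5, where it was called higher. Leaving out either vehicle library of the day ended the Stab1 call under the deposited scaling, with -0.45 at day 3 and -0.59 at day 5.

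Promoter sequence from RefSeq (GRCm38.p6) was at hand for 4 of the 7 genes, Stab1, Cd36, Mrc1 and Marco. The windows of Stab1, which rose under treatment, and Cd36, which had no shared direction, are printed for comparison, from 250 bases before to 50 bases after the start on the gene's own strand. Stab1 lies at chr14:31168592-31168891 and Cd36 at chr5:17835847-17836146, both on the minus strand, and capitals mark matches to the motifs named after them.
Stab1: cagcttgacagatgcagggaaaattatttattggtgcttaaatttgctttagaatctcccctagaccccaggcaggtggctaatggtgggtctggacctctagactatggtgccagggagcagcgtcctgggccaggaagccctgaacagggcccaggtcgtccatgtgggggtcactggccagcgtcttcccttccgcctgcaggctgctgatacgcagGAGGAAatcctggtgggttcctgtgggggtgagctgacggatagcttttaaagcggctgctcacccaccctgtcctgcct
Cd36: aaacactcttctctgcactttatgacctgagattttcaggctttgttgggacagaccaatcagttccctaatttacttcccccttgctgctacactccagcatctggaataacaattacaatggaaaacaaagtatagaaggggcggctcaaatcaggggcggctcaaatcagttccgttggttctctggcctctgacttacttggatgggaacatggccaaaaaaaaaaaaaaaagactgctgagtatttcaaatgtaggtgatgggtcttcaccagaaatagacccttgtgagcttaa
Motifs searched on both strands were GAGGAA, the core bound by the myeloid factor PU.1, the AP-1 motif TGANTCA and the interferon regulatory factor motif GAAANNGAA. GAGGAA occurred once in the Stab1 window, 30 bases before the start, and not in that of Cd36. It also occurred in the Mrc1 window, at 3 places, and once in that of Marco. No window of these 4 genes held either other motif. Of 32851 RefSeq promoter windows, 28.3% hold GAGGAA, 7.81% TGANTCA and 8.56% GAAANNGAA, so these matches describe the letters only.

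Across the 12 libraries, after the low-mRNA terms were subtracted, the genes fell into unlike patterns. Pearson correlations of log2 values, which share library, day and arm and are given as a description, were 0.94 between Msr1 and Siglec1, 0.83 between Msr1 and Stab1 and 0.70 between Stab1 and Siglec1. Scarb1 ran opposite to Siglec1 (-0.88) and Msr1 (-0.76), and Cd36 was near 0 with Siglec1 (-0.034). The Scarb1 and Cd36 values depended on the subtraction. Across the 12 libraries without it, Scarb1 had 0.17 with Siglec1 and 0.48 with Msr1, and Cd36 had 0.60 with Siglec1. In the other libraries alone these were -0.89, -0.72 and -0.44. Correlations among Msr1, Stab1 and Siglec1 stayed positive, at 0.81 to 0.92 without the subtraction and 0.60 to 0.91 in the other libraries alone. Among 11025 candidates, the genes most like each receptor included Nfkbiz and Ddit3 for Msr1 (0.99 each), and were Arl5c, Slc15a3 and Kcnj2 for Stab1 (0.98 each). For Siglec1 they were Tspan13, the inhibitory Fc receptor gene Fcgr2b and Samd9l (0.98 each). For Cd36 they were Adss (0.97), Slc16a10 (0.96) and Hddc3 (0.96), and for Scarb1 Ppa1 (1.00), Nup210 (0.98) and Hpf1 (0.98).

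Other genes of uptake pathways were counted by list. Of 9 tested genes among 17 other scavenger receptors, none was called for treatment at any day, over days, or for any day comparison. For treatment, 2.41% of all tested genes were called over days and 0.0408% to 0.408% at single days. At these shares, no call among 9 genes tells little about the list. The day comparisons called 821 to 2313 of the 14715 genes. The median log2 treatment difference of the 9 over days was 0.21, beside 0.083 for all genes. Among the smallest p-values over days were those of Colec12, a collectin-type scavenger receptor (0.41, limma adjusted p = 0.190), and Megf11 (0.62, adjusted p = 0.289). At day 5 against day 1 they belonged to Cxcl16 (1.11, adjusted p = 0.0642), Cd68 (0.45, adjusted p = 0.137) and Scarf1 (0.50, adjusted p = 0.241).

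Of 4 tested Siglecs other than Siglec1, none was called for treatment over days, where 2.41% of all tested genes were. The median of the 4 was -0.21. Cd33, an inhibitory Siglec, was at -0.53 (limma adjusted p = 0.0885), Siglec15, which takes part in osteoclast fusion, at -0.40 (adjusted p = 0.406) and Mag at 0.083 (adjusted p = 0.881). At day 5 against day 1 Cd33 rose by 2.61 (adjusted p = 0.000237), while Siglece (0.64, adjusted p = 0.443) and Siglec15 (0.43, adjusted p = 0.451) did not pass. Siglec15 rose at day 3 against day 1 by 2.64 (adjusted p = 0.00118). Among 7 genes of the mannose receptor family and endocytic lectins 1 was tested, the macrophage galactose lectin Clec10a, which rose under treatment over days by 0.79 (adjusted p = 0.0115) and fell at day 3 against day 1 (-1.17, adjusted p = 0.00715).

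Lipid uptake and handling genes had 3 of 11 tested members called higher under treatment over days and none lower, with a median of 0.26, where 2.22% of all tested genes were called higher and the median was 0.083. They were the fatty acid-binding protein genes Fabp4 (1.32, limma adjusted p = 0.0275) and Fabp5 (0.74, adjusted p = 0.0377) and the lipid droplet coat gene Plin2 (0.89, adjusted p = 0.0130). None of the 11 passed at day 5 against day 1, where the smallest p-values were those of Lpl (-0.64, adjusted p = 0.0856), Lipa (0.36, adjusted p = 0.137) and Npc2 (0.41, adjusted p = 0.153). Of 7 tested genes of apoptotic cell uptake, 1 was called higher under treatment over days, Pros1, which encodes the bridging protein S (0.45, adjusted p = 0.0426). Gas6 (-0.39, adjusted p = 0.286) and Mfge8 (0.30, adjusted p = 0.302) did not pass, and the median was 0.086. At day 5 against day 1, 4 of the 7 rose, where 5.31% of all tested genes did. They were Pros1 (1.83, adjusted p = 0.000237), its homologue Gas6 (1.63, adjusted p = 0.00355), their receptor Mertk (1.67, adjusted p = 0.0277) and Itgb5 (0.76, adjusted p = 0.0431), the last named after its values were seen.

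**Figure D4:**
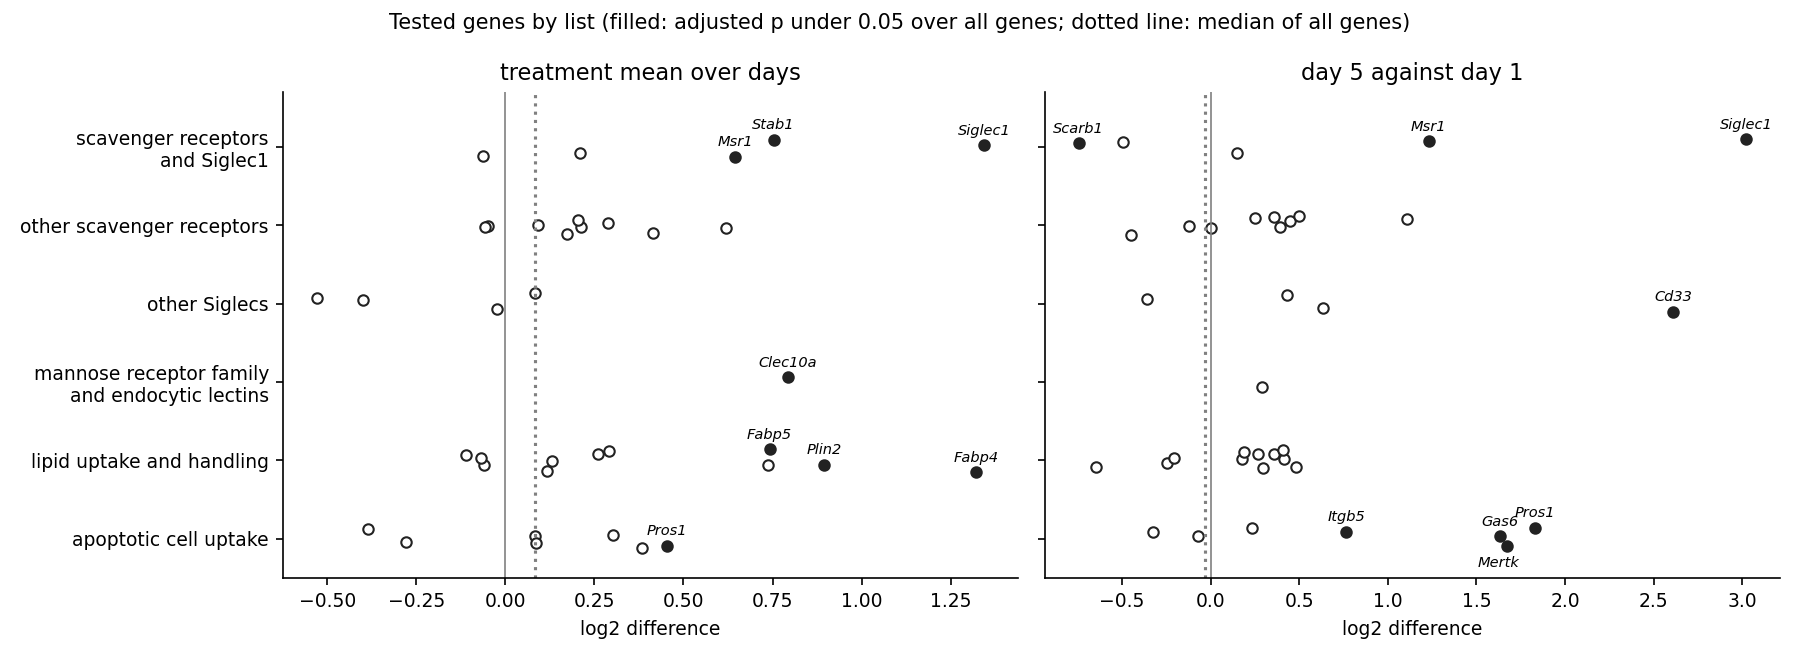
Log2 differences (x axis) for treatment averaged over days (left) and day 5 against day 1 (right) of the tested scavenger receptors and Siglec1 and of 5 lists of uptake genes (rows). Each point is 1 gene, filled and named at a limma adjusted p under 0.05 over all genes, and dotted lines are the median of all genes. No gene among the other scavenger receptors is filled in either panel, and Siglec1 lies farthest right in both.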

How the data were processed

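RNA sequencing libraries (TruSeq, total RNA) were grouped by their labelled titles. The authors' software was TopHat2, SAMtools and DESeq2 and their genome build mm9, per the submitters' processing notes. Their software versions, gene annotation and counting step were not given in the sources used here. Deposited values are log2 values, 1 table for the series, per the file headers. The lowest value is 3, and each is log2 of a normalized count plus 8: once the 8 was subtracted, 100% of a library's positive values were multiples of a single step, to within 0.02 reads, which gave reads and the common total. Of 24757 rows, 993 repeats with equal values were dropped, and 23315 of the identifiers were named with GENCODE M21, which also gave exon lengths and gene classes and is of a later build than mm9. No strand setting is stated, so overlapping antisense transcripts cannot be told apart.

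The 14715 genes whose normalized count averaged 10 or more in some group were fitted with limma 3.58.1 in R 4.3.3 (trended prior) on log2(normalized count + 1), which understates changes of low genes. The model had 6 group means and 1 term for low-mRNA libraries (under 60% nuclear protein-coding reads) at day 3 and at day 5, with 4 residual degrees of freedom. Day comparisons are thus those of the other libraries, and p-values carry Benjamini-Hochberg adjustment over all genes, with 0.05 as the threshold. The 7 receptors, the lists and the model were chosen with earlier results of these data known. Beyond the receptors, named genes were the 3 closest in pattern to each (mean normalized count of at least 50), and per list up to 3 with the smallest p for treatment over days and for day 5 against day 1; some genes that the rule names are not reported here. Replicates of a group differed beyond sampling noise (chi-square per degree of freedom 3.94 and 4.93 at day 1, 495 to 708 at days 3 and 5). Alternatives were each library left out, and 12 others on terms, libraries, filter, pseudocount, scaling and test. Python 3.11.15 with pandas 2.3.3, scipy 1.17.1 and matplotlib 3.10.9 made the tables and figures.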

Additional observations from a re-analysis of the deposited data

Results flagged for a closer look

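For Cd36 the treated libraries were below both vehicle libraries at day 1 and above their vehicle counterparts at day 3, and the fitted treatment difference was 0.69 log2 units higher at day 3 than at day 1. For Scarb1 the treated libraries were below vehicle at day 1, above it at day 3 and below it at day 5, with the fitted difference 0.18 higher at day 3 than at day 1 and lower at day 5 than at day 3, by -0.28. The limma F test over days gave adjusted p of 0.808 for Cd36 and 0.810 for Scarb1. After scaling to nuclear protein-coding reads the Cd36 pattern was still present and the Scarb1 pattern was not, because its treated low-mRNA library of day 3 was then below vehicle.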

How the results depend on the processing

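Over 24 alternatives (23 for the mean over days), Siglec1 was called higher under treatment over days in 21, Msr1 in 14 and Stab1 in 11, and the direction was upward in each (1.19 to 1.5, 0.44 to 0.77 and 0.53 to 0.90 log2 units). With no term, or with 1 common term, for the low-mRNA libraries, none of the 5 genes was called over days (0 and 0), at day 5 (0 and 0) or at day 3 against day 1 (0 and 0), and with no term 0 were called for either other day comparison. Without a filter on low values 1 was called over days, 0 for treatment at day 5 and 0 at day 3 against day 1, and with a pseudocount of 0.5 treatment at day 5 had 0. In the 8 other libraries alone the counts were 3 for treatment at day 1, 2 for treatment at day 5 and 3 at day 3 against day 1. For treatment at day 1, quantile normalization called 2, the libraries of the day alone 3, and the deposited log2 values, nuclear protein-coding scaling and limma-voom 1 each. At day 3 against day 1, quantile normalization called 3, and a pseudocount of 5, the deposited values, nuclear scaling, the libraries compared alone and limma-voom 2 each; at day 5 against day 3 the libraries compared alone called 2. For low-mRNA libraries at day 3, nuclear scaling called 3. With 1 library left out in turn the counts ran from 0 to 1 for treatment at day 1, 0 to 3 at day 3, 0 to 1 at day 5 and 1 to 3 over days, 0 to 2 at day 3 against day 1, 1 to 3 at day 5 against day 1, 2 to 4 at day 5 against day 3, 4 to 5 and 3 to 4 for low-mRNA libraries at days 3 and 5, and 0 to 0 for the F test. Where the reported fit or the alternative was called, directions reversed for Cd36 in the 8 other libraries (-0.62 at day 5, -0.18 over days). They also reversed for Msr1 at day 5 against day 1 with no term (-0.087). The low-mRNA differences of Stab1 did so (0.78 at day 3 and 0.14 at day 5 by quantile normalization, 0.33 at day 3 by nuclear scaling). Those of Scarb1 did as well (0.29 at day 3 and 0.96 at day 5 by quantile normalization, 0.76 at day 5 by nuclear scaling). Signs also changed where neither fit was called, for treatment differences of Cd36 and Scarb1 and day differences of Cd36, Stab1 and Siglec1. The cause of these changes was not tested. Over all genes the calls ranged from 0 to 844 for treatment at day 1 (6 in the fit reported), 0 to 4487 at day 3 (10), 0 to 855 at day 5 (60), 0 to 2783 over days (354) and 0 to 948 for the F test (0), and from 0 to 4900, 1 to 6432 and 0 to 7304 for day 3 against day 1 (821), day 5 against day 1 (1481) and day 5 against day 3 (2313). The labels give replicate numbers but nothing that pairs them, and deviations of same-numbered libraries correlated at 0.070 at day 1 and at 0.90 at days 3 and 5, where the number coincides with the low-mRNA kind. A replicate block within each day left 0 of the 5 genes called for treatment at day 5, 2 over days (Stab1 lost, adjusted p = 0.0552), 0 at day 3 against day 1, 2 at day 5 against day 1 (Scarb1 lost at -0.78, adjusted p = 0.0599) and 2 at day 5 against day 3 (Stab1 and Scarb1 lost, adjusted p = 0.0582 and 0.0663). Depth limited Mrc1 and Marco to at most 20 reads a library.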
